A study of Mus musculus with 9 samples.

Results

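The cells described here are CD4+CD8+ (DP) mouse thymocytes that carry a productive T cell receptor beta chain (TRB) and are not cycling, divided by whether a productive T cell receptor alpha chain (TRA) was also sequenced in them. Kept cells of the DP library had 500 or more genes, no more than 10% mitochondrial UMIs, and a leading hashtag of 10 or more counts that exceeded each other hashtag 4 times or more. It entered the comparison when the DP receptor library listed a TRB contig for its barcode and when Mki67, Top2a, Cdk1, Birc5, Ube2c and Ccnb2, which mark dividing cells, summed to fewer than 5 UMIs. This gave 3750 cells of 26990 barcodes in the series: 1552 with at least 1 TRA contig and 2198 with none. The cells were chosen by measured values, the contig calls and the cycling sum, so TCR segment and constant genes and the 6 cycling genes are not results of the comparison.

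The study sorted thymocytes of adult female mice into DP, CD4 single-positive (CD4 SP) and CD8 single-positive (CD8 SP) cells and sequenced the RNA and receptors of each gate with 10x 5′ v2 chemistry. Wild type (WT) cells carried hashtag antibody 4, and cells of mice with the CD3εI173A substitution carried hashtag antibody 6. By the title of the series, this substitution strengthens signaling through the TCR. The labels name no treatment and do not give how many mice stand behind a hashtag. Each genotype is therefore 1 sample per gate: no test between genotypes or between cells was possible, and every interval below covers counting error only. The UMIs of a gene can also sit in few cells, which such an interval does not cover. Cells with hashtag 5, to which the labels give no genotype, were not used by the rule; 1801 of them fit its other terms, and they serve as a repeat of the comparison in cells that did not enter it.

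The DP library held 8670 barcodes and 31269793 UMIs, and its receptor library held 10732 contigs, all marked productive, on 7508 barcodes. The DP library shared 109 barcodes with the CD4 SP library and 109 with the CD8 SP library, the SP libraries shared 124, and 1 barcode shared by DP and CD8 SP had the same receptor junction in both libraries. Cd3e, which encodes the chain that carries the substitution, gave 1766 CPM (UMIs of a gene per 1000000 UMIs of its group) in WT cells with TRA and 1722 CPM without, and 1954 and 1952 CPM in the I173A groups. A 5′ count does not read the substituted base and checks no genotype label.

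Thymocytes first rearrange the beta chain, which pairs with the invariant pre-TCR alpha chain (Ptcra). After a burst of division they become small DP cells, which keep the recombinase Rag1 and Rag2 and rearrange the alpha locus, joining V segments to J segments that lie progressively farther along the locus in later rounds. A complete alpha-beta receptor lets the cell read self peptide on MHC, and receptor signals then induce early response genes such as Nr4a1 and Egr1, raise Cd5 and Cd69, and end recombinase expression as cells become SP.

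TRB chains that occur in more than 1 cell were also divided by TRA. Among cells with exactly 1 TRB contig there were 3583 distinct beta chains, and 30 of them were found in more than 1 cell of a genotype, 64 cells in all. Of these 30 groups, 4 held cells with and cells without TRA, 23 held only cells without, and 3 held only cells with TRA. Of all 3750 cells, 2198 were without TRA. In the 3 groups whose cells all had TRA the cells also shared an alpha junction. The hashtag 5 cells held 14 such groups: 3 mixed, 7 only without TRA and 4 only with TRA. Of those 4, 1 shared an alpha junction and 3 had different ones. A shared beta junction with the alpha chain in only 1 of the 2 cells is shown for each genotype, as the junction (CDR3) bases from the deposited contigs, 5′ to 3′, with the first and last codon in capitals.
WT beta junction in 2 cells, TRBV10 with TRBJ1-4, 36 bases: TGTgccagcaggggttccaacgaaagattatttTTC
WT alpha junction of 1 of these cells, TRAV7D-4 with TRAJ42, 48 bases: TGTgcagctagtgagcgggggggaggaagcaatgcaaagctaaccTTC
I173A beta junction in 2 cells, TRBV12-1 with TRBJ2-3, 48 bases: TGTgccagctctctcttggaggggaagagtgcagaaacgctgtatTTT
I173A alpha junction of 1 of these cells, TRAV6-7-DV9 with TRAJ33, 36 bases: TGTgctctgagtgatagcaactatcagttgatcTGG
The WT beta junction rested on 8 and 9 UMIs and its alpha junction on 3 UMIs. The I173A beta junction rested on 2 and 12 UMIs and its alpha junction on 2 UMIs. The beta junction had the same mean length with and without TRA in WT (42.7 and 42.7 bases), and 42.5 and 42.7 bases in I173A.

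A TRA contig was found in 38.5% of the WT cells (637 of 1655, exact binomial 95% interval 36.1 to 40.9%) and in 43.7% of the I173A cells (915 of 2095, 41.5 to 45.8%). The hashtag 5 cells lay between them at 40.3% (725 of 1801, 38.0 to 42.6%). Cycling DP cells, which the rule left out, had TRA in 12.9% of WT (44 of 341) and 13.4% of I173A cells (15 of 112). Non-cycling TRB cells of the SP gates had TRA far more often: 93.4% of WT and 92.7% of I173A cells in the CD4 SP gate, 88.9% and 88.1% in the CD8 SP gate. SP cells are known to carry a complete receptor, so a contig can be absent from a cell that has the chain. Where TRA was found, its median was 9 UMIs in WT CD4 SP cells and 7 in WT CD8 SP cells, against 4 in WT and 5 in I173A DP cells.

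Depth moved with the share. DP cells were shallower than SP cells, with median totals of 3011 UMIs in WT cells with TRA and 2766.5 without, and 2964 and 2723.5 in I173A. Among cells of 2000 to 4000 UMIs the TRA share was 39.6% and 43.9% in WT and I173A DP cells. At that depth it was 85.1% and 80.5% for CD4 SP cells, with 84.0% and 82.5% for CD8 SP cells. Below 1500 UMIs it was 27.4% in WT and 29.7% in I173A DP cells, and at 6000 UMIs or more it was 42.9% and 55.6%. The I173A share was the higher one in each of 7 depth ranges, and the 2 intervals overlapped in each of them.

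**Figure D1:**
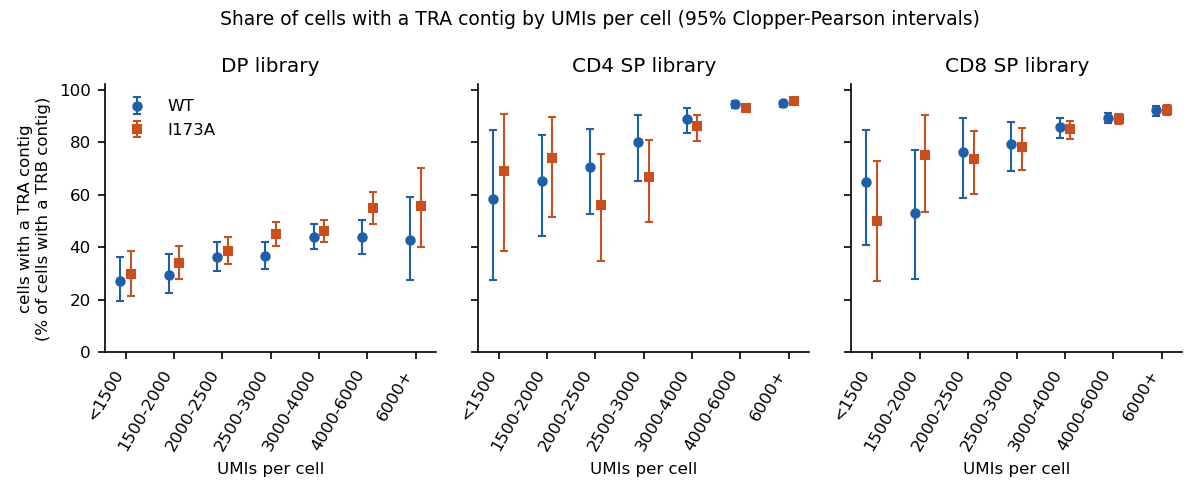
Percent of non-cycling TRB cells with a TRA contig (vertical axis) by the UMIs of the cell (horizontal axis) for each gate and genotype, with exact binomial 95% intervals. DP cells stay below the SP cells at matched depth (39.6% and 43.9% against 80.5 to 85.1% at 2000 to 4000 UMIs).

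Other measures of the libraries were close between the classes. Median genes per cell were 1690 and 1622 in WT and 1701 and 1604 in I173A; thinned to 1500 UMIs per cell, which left out 117 WT and 118 I173A cells, they were 1014 and 1020 in WT and 1022 and 1026 in I173A. Mitochondrial UMIs made up a median of 1.63% and 1.84% in WT and 1.79% and 1.90% in I173A. TRB UMIs, summed over the contigs of a cell, had a median of 18 with TRA and 15 without in WT, and 18 and 16 in I173A. No DP barcode was listed with 2 TRB contigs and no TRA contig, so every cell without TRA had 1 TRB contig. With TRA, 55 WT and 78 I173A cells had 2 TRB contigs. These cells count toward the TRA share and the TRB UMIs of 1 class only. At the edges of the rule, 67 WT and 83 I173A cells counted as having TRA on 1 UMI. The cycling sum was 4 in 18 WT cells, 6 of them with TRA, and 23 I173A cells, 4 with TRA; it was 5, just outside, in 7 WT cells (1 with TRA) and 11 I173A cells (2 with TRA).

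Both classes had the RNA of DP thymocytes. All 10 DP markers were found in every group, summing to 12764 CPM with TRA and 15480 CPM without in WT, and to 11957 and 15309 CPM in I173A. The 9 SP markers summed to 261 CPM with TRA and 49.0 CPM without in WT, and to 150 and 51.7 CPM in I173A. No SP marker was at 0 in the cells with TRA; Zbtb7b and Nkg7 were at 0 in the WT cells without, and S1pr1 and Zbtb7b in the I173A cells without. At least 2 UMIs of these markers were found in 9.26% of WT cells with TRA and 2.16% without, and in 7.87% and 1.61% of I173A cells. The part of these cells in each result was measured by repeating it in cells with at most 1 SP marker UMI, a setting chosen after seeing the data, and values of that setting are given below for the genes that lead the comparison. Of 8 double-negative thymocyte markers, Hhex, Bcl11a and Cd34 were at 0 in the 4 groups, and all 8 summed to 17.7 to 25.5 CPM. The 7 B cell markers summed to 475 to 547 CPM in the 4 groups, with at least 3 of them at 0 in each, Ms4a1 and Pax5 among these. The 8 markers of gamma delta or innate-like T cells summed to 366 CPM with TRA and 408 CPM without in WT and to 335 and 407 CPM in I173A, with at least 4 at 0 in each group, Zbtb16, Klrb1c and Cd163l1 among these. The 13 macrophage or dendritic cell markers summed to 169 to 222 CPM, with Itgax and Flt3 at 0 in each group, and the 9 stromal markers to 90.4 to 124 CPM, with the same 6 at 0. The part of these lists in the results was not tested.

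In the comparison of RNA, genes averaging 20 CPM or more across both classes (the floor) were compared, and a gene counts as past the fold when its CPM differed by 1.5 times or more. Members of a list below the floor are not counted, and a gene that is low in 1 class can reach it through the other. In WT, 134 of 6675 genes (2.01%) were higher in cells with TRA by that fold and 82 (1.23%) were lower. In I173A, 157 of 6789 (2.31%) were higher and 70 (1.03%) lower. Genes past the fold in both genotypes numbered 71 higher (1.09% of 6543 genes) and 8 lower (0.122%). In the hashtag 5 cells 70 of the 71 were also higher and 60 past the fold, and 6 of the 8 were also lower and 4 past the fold, where 153 of 6805 genes (2.25%) were higher and 101 (1.48%) lower. The median gene had a log2 ratio of -0.01 in WT, -0.01 in I173A and -0.02 in the hashtag 5 cells.

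The early response genes of receptor signaling were the group highest in cells with TRA. Of 29 listed genes 17 reached the floor in each genotype, and these 17 had higher CPM with TRA, with 11 of 17 in WT and 13 of 17 in I173A past the fold, against 2.01% and 2.31% of all genes. The list's median log2 ratio was 0.82 in WT and 1.03 in I173A, and 0.76 in the hashtag 5 cells, where 17 of 18 were higher. Some members, such as Egr2 and Nab2 (2.32 and 9.27 CPM in WT cells without TRA), reached the floor only through cells with TRA. The counts and medians of this list are therefore set in part by the floor. The lowest ratios among the named members were Nfkbia, the inhibitor of NF-kB, at 1.01 and 1.00, Rel, an NF-kB subunit, at 1.11 and 1.07, and Bcl2l11, the pro-apoptotic protein Bim, at 1.18 and 1.48.

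Nr4a1 (chr15:101253902-101274795, GRCm38.p6 in RefSeq), the orphan nuclear receptor Nur77 that follows receptor signal strength, stood at 113 CPM in WT cells with TRA and 15.9 CPM without. In I173A it stood at 120 CPM with TRA and 4.73 CPM without. The ratio was 7.08 in WT (counting interval 5.17 to 9.88), 25.4 in I173A (15.4 to 44.9) and 9.94 in the hashtag 5 cells. The large I173A ratio rests on 16 UMIs in its cells without TRA.

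Egr2 (chr10:67534469-67542188), a zinc finger factor of the same response, was at 50.6 CPM with TRA and 2.32 CPM without in WT (21.8, 10.2 to 55.7). The I173A cells had 42.4 and 2.36 CPM (17.9, 8.82 to 42.5), and the ratio in hashtag 5 cells was 6.91. Its 7 WT and 8 I173A UMIs in cells without TRA set these wide intervals. Egr1, its relative, was at 302 and 61.9 CPM in WT (4.88, 4.14 to 5.78) and at 346 and 45.8 CPM in I173A (7.56, 6.38 to 9.01). Nab2 (chr10:127660918-127666703), the corepressor that Egr factors induce and that binds them, had ratios of 8.48 in WT (5.65 to 13.2) and 6.6 in I173A (4.92 to 9.02).

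Cd5 (chr19:10718107-10739026), a surface receptor that dampens TCR signals and whose level tracks them, was at 434 CPM with TRA and 120 CPM without in WT. In I173A it was at 609 and 114 CPM. The ratios were 3.61 (3.19 to 4.09) in WT, 5.34 (4.78 to 5.97) in I173A and 3.70 in hashtag 5 cells, so the cells without TRA had like levels in the 2 genotypes and the cells with TRA did not. Cd69, the activation marker that retains thymocytes in the thymus, was at 127 and 41.4 CPM in WT (3.08, 2.47 to 3.84) and at 133 and 21 CPM in I173A (6.34, 4.91 to 8.29). Cd2, the adhesion receptor for CD48, had ratios of 2.76 in WT (2.41 to 3.17) and 3.1 in I173A (2.74 to 3.50).

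Other named genes of the high side were past the fold by wide margins in both genotypes. Cd53, a tetraspanin of lymphocytes, was at 68.8 and 12.6 CPM in WT (5.47, 3.80 to 8.05) and at 71.3 and 15.4 CPM in I173A (4.64, 3.41 to 6.42). Hivep3, a zinc finger protein, had ratios of 4.18 (3.06 to 5.80) and 4.83 (3.72 to 6.33). Nfkbid, an atypical member of the inhibitor of NF-kB family, had 3.56 and 3.47, and Bach2, a repressor that restrains lymphocyte activation, had 3.05 and 3.28. Each of these 4 genes was past the fold in the hashtag 5 cells as well, at 3.38 for Cd53, 4.14 for Hivep3, 2.42 for Nfkbid and 2.18 for Bach2.

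Genes that go with the passage from DP to SP were higher with TRA as well. Of the positive selection and lineage list, 15 of 20 members were higher in WT, 9 past the fold, with a median log2 ratio of 0.34, and 15 of 19 were higher in I173A, 7 past the fold, with a median of 0.37. Some of its members, such as Cd53 (12.6 CPM in WT cells without TRA), reached the floor only through cells with TRA. These counts and medians are set in part by the floor. Itm2a (chrX:107397195-107403360), a membrane protein of selected thymocytes, was at 357 CPM with TRA and 72.2 CPM without in WT, and at 396 and 59.1 CPM in I173A, ratios of 4.94 (4.24 to 5.78) and 6.70 (5.77 to 7.83). Tox, a nuclear factor needed for the CD4 lineage, had ratios of 2.37 and 3.08, and Gata3, which directs CD4 fate, had 1.58 (1.29 to 1.94) and 2.58 (2.16 to 3.11). The coreceptor genes were lower: Cd4 had ratios of 0.80 and 0.77, Cd8a 0.91 and 0.88, and Cd8b1 0.85 and 0.82. Chemokine receptors and adhesion genes had 9 of 12 members higher in WT (3 past the fold) and 8 of 11 in I173A (1 past the fold). Ccr4, which marks cells that have just begun selection, led them at 3.12 (2.10 to 4.73) and 6.56 (4.34 to 10.3), and Ccr9, the receptor for the thymic chemokine CCL25, was at 1.15 and 1.13.

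Bcl2 (chr1:106538176-106714290), the survival protein that replaces Bcl-xL as thymocytes are selected, was at 89.0 CPM with TRA and 17.9 CPM without in WT and at 66.5 and 13.6 CPM in I173A. Its ratios were 4.98 (3.65 to 6.87) and 4.89 (3.53 to 6.90), and 2.79 in hashtag 5 cells. Bcl2l1, which encodes Bcl-xL, had the opposite direction, 0.77 (0.67 to 0.89) and 0.69 (0.61 to 0.79). The Bcl2 family as a whole was split, with 4 of 10 members higher in WT and 5 of 10 in I173A.

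The maturation and egress list differed between the genotypes in its counts. Of 20 listed genes, 15 reached the floor in WT and 11 in I173A. Some members, such as Gimap5 and Bcl2 (8.94 and 17.9 CPM in WT cells without TRA), reached it only through cells with TRA. The counts and medians of this list, and their difference between the genotypes, are therefore set in part by the floor. In WT, 12 of the 15 were higher with TRA, 7 past the fold, with a median log2 ratio of 0.56; in I173A, 6 of the 11 were higher, 2 past the fold, with a median of 0.06. Ccr7, the receptor that leads thymocytes into the medulla, was at 56.5 CPM with TRA and 7.28 CPM without in WT (7.76, 4.89 to 12.9) and at 24.5 and 11.2 CPM in I173A (2.18, 1.45 to 3.32). H2-K1, a classical MHC class I heavy chain, was at 137 and 32.1 CPM in WT (4.25, 3.36 to 5.42) and at 62.0 and 41.4 CPM in I173A (1.5, 1.20 to 1.88). The interferon-induced Ifi27l2a had ratios of 2.59 (1.97 to 3.42) and 1.08 (0.82 to 1.41). These genes moved with the SP markers above. In cells with at most 1 SP marker UMI the WT ratio of H2-K1 was 0.90 and that of Ifi27l2a was 0.92, on the other side of 1, and Ccr7, itself 1 of those markers, was at 1.55 in WT and 1.00 in I173A.

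The response genes stayed above 1 in that setting. With at most 1 SP marker UMI the ratios in WT and I173A were 3.08 and 5.13 for Cd5, 5.34 and 6.86 for Egr1, 6.79 and 23.2 for Nr4a1, and 3.19 and 4.48 for Itm2a. Bcl2, a marker on that list, was at 2.33 and 3.36. Among the other genes of the high side, Egr2 was at 21.5 and 15.1, Nab2 at 6.91 and 7.61, Ccr4 at 3.77 and 5.34, and Hivep3 at 3.05 and 4.61. Cd53 was at 3.3 and 3.47, Nfkbid at 2.12 and 2.80, Tox at 2.17 and 2.77, and Id2 at 1.98 and 1.47. These 4 genes were nearer to 1 than before in both genotypes, as were Cd5, Nr4a1, Itm2a, Bcl2, Egr2 and Hivep3. In WT, Itm2a had been at 4.94 and Bcl2 at 4.98. Egr1 and Ccr4 in WT and Nab2 in I173A were farther from 1 than before. Genes past the fold then numbered 82 higher and 71 lower in WT and 116 higher and 49 lower in I173A.

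The recombination genes were lower in cells with TRA. Rag1 (chr2:101638252-101649532), the recombinase subunit that cuts DNA, was at 1081 CPM with TRA and 1593 CPM without in WT and at 978 and 1535 CPM in I173A. Its ratios were 0.68 (0.65 to 0.71), 0.64 (0.61 to 0.67) and, in hashtag 5 cells, 0.63. Rag2, the partner subunit, was at 301 and 402 CPM in WT (0.75) and at 263 and 386 CPM in I173A (0.68). Dntt, the polymerase that adds bases at V(D)J joins, had ratios of 0.82 and 0.75, and Xrcc6, the Ku70 subunit of end joining, had 0.79 and 0.75. Of the V(D)J and end-joining list, with 17 genes listed, 10 of 12 members were lower in WT, none past the fold, and 9 of 13 in I173A, 1 past the fold, with medians of -0.15 and -0.24.

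Ptcra (chr17:46755663-46763712), the pre-TCR alpha chain, was among the lowest: 53.1 CPM with TRA and 89.1 CPM without in WT, and 46.5 and 93.4 CPM in I173A. Its ratios were 0.60 (0.47 to 0.75), 0.50 (0.40 to 0.61) and, in hashtag 5 cells, 0.64. Genes typical of the DP stage went the same way in smaller steps, with 14 of 17 members lower in each genotype, 1 of them past the fold in I173A, and median log2 ratios of -0.20 and -0.31. Endou, a gene typical of resting DP cells, had ratios of 0.74 and 0.70. Among the other genes named for the lowest ratios, Camk2a, a calcium-dependent kinase, was at 0.51 and 0.60, Tubb2b, a beta tubulin, at 0.65 and 0.60, and E2f2, a cell cycle transcription factor, at 0.67 and 0.67. Myzap and Slc16a1, also among the 15 lowest, were at 1.17 and 1.24 in the hashtag 5 cells and so did not repeat.

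**Figure D2:**
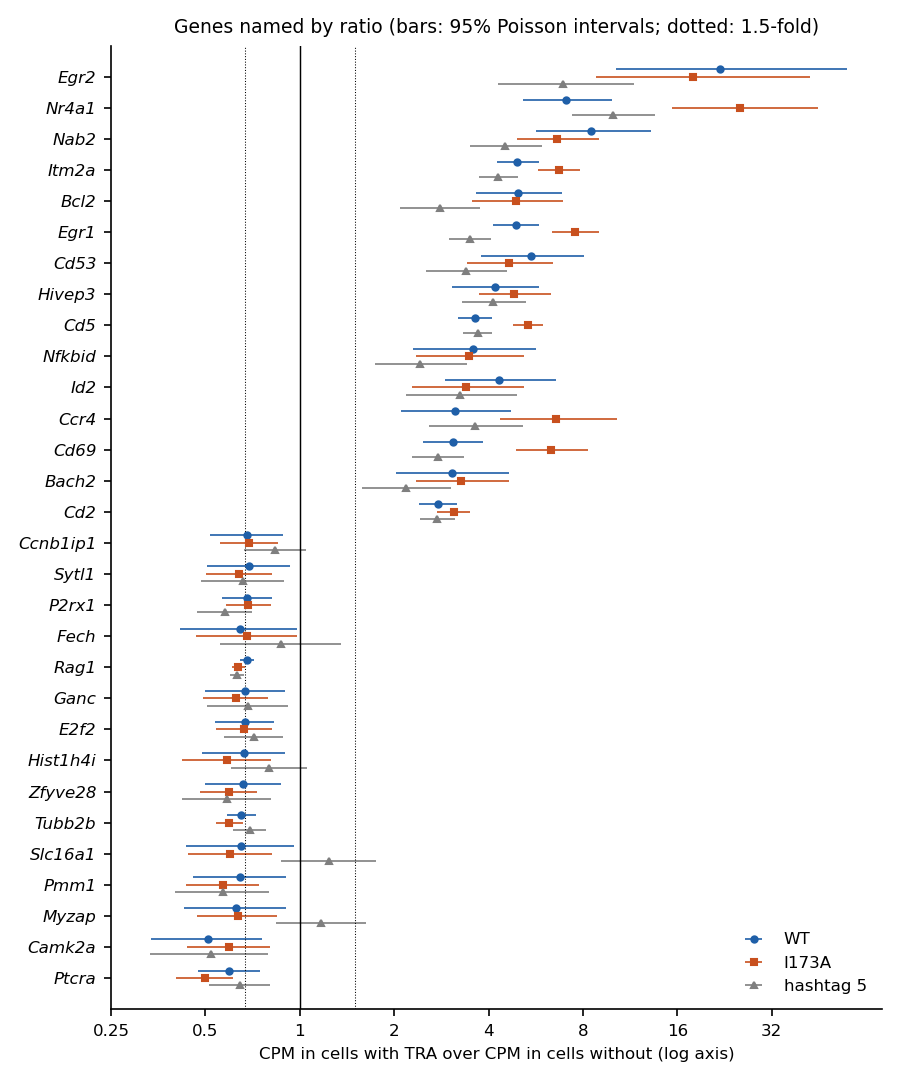
Ratio of CPM in cells with TRA to cells without (log axis) for the 15 named genes at each end of the ranking in WT, I173A and hashtag 5 cells, with counting intervals. Egr2 and Nr4a1 lie far above 1 and Ptcra and Rag1 lie below 1 in all 3 sets of cells.

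Signaling components upstream of the response genes were close to even. CD3 chains had medians of 0.08 and 0.07 on the log2 scale with no member past the fold, and Cd3e was at 1.03 (0.98 to 1.07) and 1.00 (0.97 to 1.04). Of 24 proximal kinases and adaptors, 14 were higher in WT and 15 in I173A, with medians of 0.06 and 0.11; the costimulatory receptor Cd28 (1.52 and 1.67) and the Src kinase Fyn (1.45 and 1.51) were at the upper end, and Lck was at 0.96 and 0.94. Id2, an inhibitor of E protein transcription factors, had ratios of 4.32 and 3.40, but 1.98 and 1.47 in cells with at most 1 SP marker UMI. Id3, an inhibitor of the same factors that receptor signals induce, had ratios of 1.45 and 1.82. Glycolysis genes were higher in 10 of 14 in WT and 11 of 13 in I173A, with Aldoa, an aldolase, at 1.52 and 1.64 and Ldha, lactate dehydrogenase, at 1.31 and 1.42. Nucleolar and Myc target genes were higher in 11 of 14 and 13 of 14. The carnitine shuttle and beta-oxidation genes were split, 6 of 11 and 7 of 12 higher and none past the fold, and S phase genes were lower in 13 of 16 and 12 of 17 members in WT and I173A but higher in 13 of 18 in hashtag 5 cells.

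Several other lists were split or close to even. Exceptions were MHC class I presentation genes and, in WT, interferon-stimulated genes, most of which were higher with TRA. MHC class I presentation genes were higher in 6 of 8 in each genotype (medians 0.30 and 0.11), p53 targets in 4 of 8 in WT and 2 of 8 in I173A, and glucocorticoid response genes in 3 of 7 and 4 of 7. Interferon-stimulated genes were higher in 8 of 9 in WT, 2 past the fold, and in 5 of 10 in I173A (medians 0.25 and 0.05). Cholesterol synthesis genes had medians of -0.03 and -0.02, and 49 of 79 ribosomal protein genes in WT and 53 of 79 in I173A were lower, with a median of -0.04 in each.

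Genes that tissue handling also induces moved with these results. The dissociation and heat list was higher with TRA in 12 of 17 members in WT and 10 of 14 in I173A, 2 past the fold in each, with medians of 0.27 and 0.23. The immediate early gene Ier2 was at 1.96 and 2.61 and Junb at 1.41 and 1.86, while Jun was at 0.78 and 1.04. Cells with and without TRA of a genotype came from the same library under the same hashtag. The labels do not describe handling, and its part in the ratios was not tested.

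**Figure D3:**
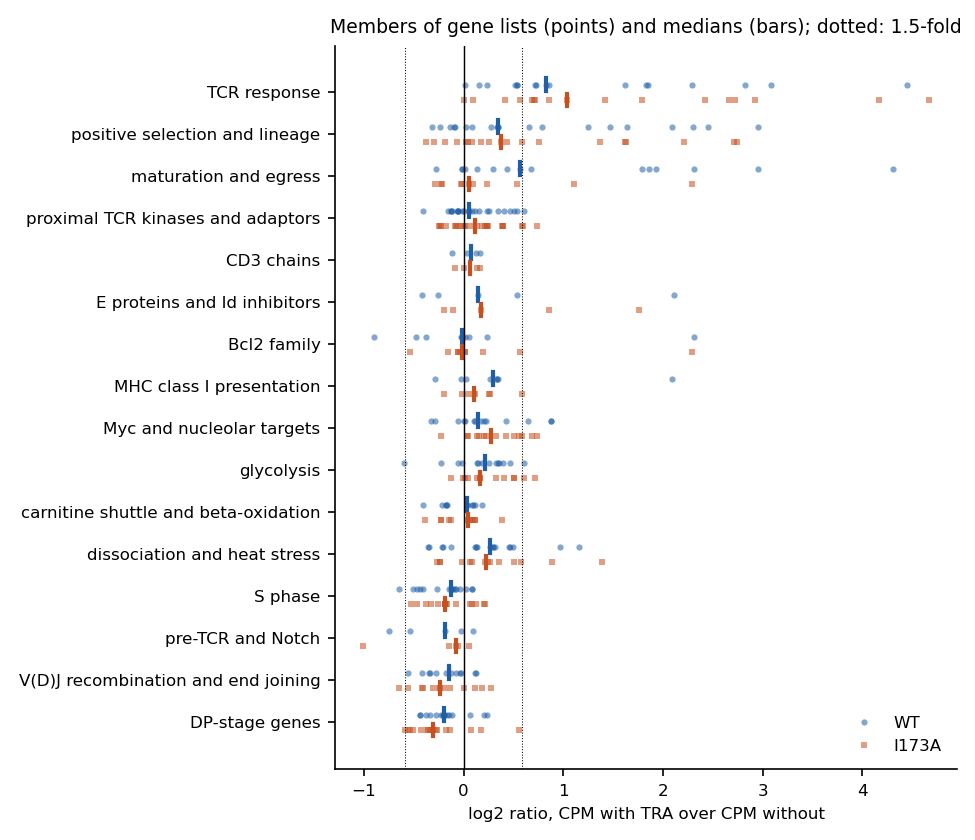
Log2 ratio of CPM with TRA over without for each gene list (points are members, with the list median marked) in WT and I173A. The receptor response list has the highest median (0.82 and 1.03), and the DP-stage list lies below 0 (-0.20 and -0.31).

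The response genes were also summed per cell. Of the cells with TRA, 17.0% in WT (108 of 637) and 21.9% in I173A (200 of 915) had at least 3 UMIs of Nr4a1, Egr1, Egr2, Nab2, Itm2a and Cd69, against 4.03% and 3.22% of cells without; the 6 genes and the limit were chosen after seeing the data, and the sum is a range and not a cell type. Cells picked by these UMIs hold most of them by construction. The share of signal UMIs in the picked cells was 92.2% in WT and 92.6% in I173A with TRA, and 68.7% and 58.3% without. The share of cells with TRA was 32.7% in WT and 35.1% in I173A where the sum was 0, and 76.0% and 90.0% where it was 6 or more. Among cells below 3 UMIs the ratios of the 8 genes given next were nearer to 1. Cd5 was at 2.27 and 3.12, Tox at 1.74 and 2.05, Bcl2 at 2.46 and 3.76, Rag1 at 0.82 and 0.80, and Ptcra at 0.70 and 0.59. In WT, Hivep3 was at 1.17 (0.68 to 1.98), Nfkbid at 1.14 (0.55 to 2.26) and Ccr4 at 1.15 (0.51 to 2.49), intervals that include 1. In I173A, Hivep3 was at 2.11 (1.44 to 3.09), Nfkbid at 1.05 (0.56 to 1.93) and Ccr4 at 2.37 (1.31 to 4.38).

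The levels also went by the number of TRA UMIs in a cell. Cd5 in WT stood at 120 CPM with no TRA, 94.8 with 1 to 2 UMIs, 324 with 3 to 5 and 670 with 6 or more; in I173A it stood at 114, 264, 392 and 896 CPM. Rag1 in WT stood at 1593, 1586, 1292 and 691 CPM over the same classes, and in I173A at 1535, 1406, 1181 and 668 CPM. Egr1 in WT stood at 61.9, 51.3, 196 and 497 CPM, and in I173A at 45.8, 144, 214 and 518 CPM. WT cells with 1 to 2 TRA UMIs were thus near the cells with none in Cd5, Egr1 and Rag1, while I173A cells with 1 to 2 TRA UMIs were above them in Cd5 and Egr1. Median depth over the 4 classes was 2766.5, 2483, 2974 and 3319 UMIs in WT and 2723.5, 2636.5, 2819 and 3273.5 UMIs in I173A, and its part was not tested.

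**Figure D4:**
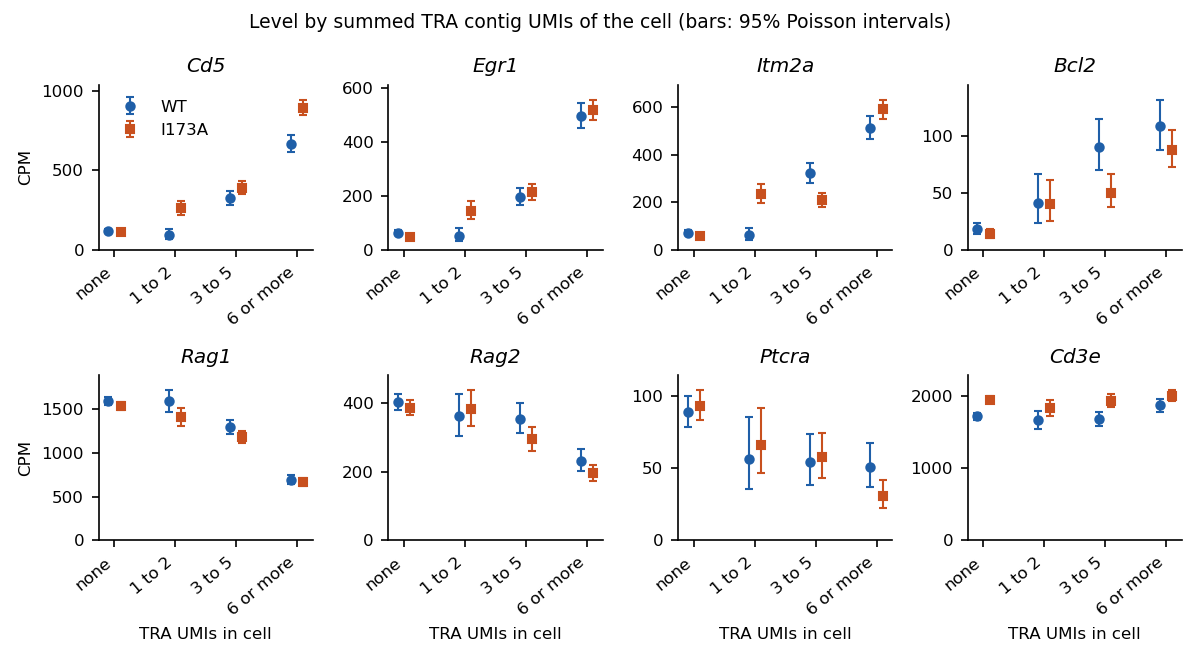
CPM of selected genes (vertical axis) by summed TRA UMIs of the cell (none, 1 to 2, 3 to 5, 6 or more) in WT and I173A, with exact Poisson 95% intervals. Cd5 reaches 670 and 896 CPM in the class with most TRA UMIs, where Rag1 is at 691 and 668 CPM.

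Read from the side of the gene, the share of cells with TRA went up with Cd5 and down with Rag1. With every cell thinned to 1500 UMIs, TRA was found in 35.0%, 47.8%, 76.5% and 80.0% of WT cells with 0, 1, 2 to 3 and 4 or more Cd5 UMIs, and in 37.7%, 55.4%, 81.1% and 94.7% of I173A cells. Without thinning these shares were 33.1%, 42.4%, 52.9% and 79.1% in WT and 34.8%, 46.9%, 70.7% and 89.2% in I173A. For the same classes of Rag1 UMIs the thinned shares were 56.9%, 41.8%, 34.2% and 26.0% in WT and 63.8%, 40.3%, 36.2% and 35.8% in I173A, against 67.8%, 42.4%, 36.8% and 30.3%, and 72.8%, 49.6%, 35.4% and 35.7% unthinned.

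Within the cells with TRA, the J segment gives the position reached along the alpha locus. Among cells with 1 TRA contig, 33.1% in WT used J61 to J41, 42.7% J40 to J21 and 24.2% J20 to J2, and in I173A the shares were 33.6%, 41.8% and 24.6%. Ccr7 stood at 15.9, 73.5 and 109 CPM over these 3 classes in WT and at 17.2, 30.4 and 31.3 CPM in I173A. Egr1 in WT stood at 207, 346 and 397 CPM, while Cd5 in WT stood at 393, 468 and 337 CPM without an order. Depth went the other way, with medians of 3516, 2923 and 2642 UMIs in WT and 3460, 2887.5 and 2535 UMIs in I173A.

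Few V segments of the beta chain had a ratio whose interval left out 1. The intervals were not corrected for the number of segments examined. TRBV19 made up 6.36% of the beta chains of WT cells with TRA and 3.73% without, a ratio of 1.70 (1.08 to 2.70), and its I173A ratio was 1.14 (0.76 to 1.72). In I173A TRBV2 made up 5.84% and 3.73% (1.57, 1.04 to 2.37) and TRBV26 2.62% and 4.92% (0.53, 0.32 to 0.86), where the WT ratios were 1.01 (0.65 to 1.54) and 1.16 (0.72 to 1.87). No one of the 3 had an interval that left out 1 in both genotypes. In the hashtag 5 cells all 3 intervals included 1, with ratios of 1.37 for TRBV19, 0.87 for TRBV2 and 0.86 for TRBV26.

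The genotypes were then set side by side within each class. In cells with TRA, 95 of 6728 genes (1.41%) were higher in I173A than in WT by the fold and 49 (0.728%) lower; in cells without TRA, 74 of 6729 (1.1%) were higher and 27 (0.401%) lower. Cpt1a (chr19:3322326-3385735), the enzyme that loads fatty acids onto carnitine for the mitochondrion, was higher in I173A by 9.94-fold with TRA (5.41 to 20.3) and 6.25-fold without (4.06 to 10.0). Its CPM was 5.41 and 7.95 in WT with and without TRA and 53.7 and 49.6 in I173A, so within a genotype the 2 classes were close. Slc25a20, the carnitine carrier, was at 1.64 and 1.72, and Acadvl, which starts oxidation of long chains, at 1.30 and 1.75; 9 of 12 members of that list were higher in each class, 2 and 3 past the fold. Tsc22d3, the glucocorticoid-induced GILZ, was at 1.73 (1.49 to 2.03) with TRA and 2.06 (1.83 to 2.31) without. The immediate early genes Jun and Fos were lower in I173A in both classes, at 0.50 and 0.38 for Jun and 0.57 and 0.26 for Fos. They belong to the dissociation and heat list, of which 14 of 16 members with TRA and 13 of 16 without were lower in I173A, 3 past the fold in each class, with median log2 ratios of -0.15 and -0.22. Txnip, an inhibitor of thioredoxin and glucose uptake, was at 1.60 (1.47 to 1.74) and 1.59 (1.49 to 1.70), Mgst2, a glutathione transferase, at 1.70 and 1.54, and Vim, the intermediate filament vimentin, at 0.71 and 0.58; these 3 genes were chosen after their values were seen.

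Some response genes differed between the genotypes by class. Cd5 was at 1.40 (1.29 to 1.52) in I173A over WT with TRA and 0.95 (0.82 to 1.1) without, and the quotient of these ratios was 1.48 (1.25 to 1.74). Nr4a1 was at 1.07 (0.90 to 1.26) with TRA and 0.30 (0.16 to 0.53) without, a quotient of 3.58 (1.99 to 6.46), and Cd69 was at 1.04 and 0.51, a quotient of 2.06. For Nr4a1 and Cd69 the quotient therefore came from lower levels in the I173A cells without TRA, in which the dissociation and heat list was lower too; its part was not tested. Other response genes had quotients below 1, with intervals that include 1. Nab2 was at 1.31 with TRA and 1.69 without, a quotient of 0.78 (0.47 to 1.28). Egr2 was at 0.84 and 1.02, a quotient of 0.82 (0.29 to 2.34). Id3 was at 1.25 (1.15 to 1.36) and 1.00 (0.91 to 1.09). H2-K1 was at 0.45 (0.37 to 0.55) with TRA and 1.29 (0.99 to 1.69) without, a quotient of 0.35 (0.26 to 0.49), and Ccr7 was at 0.43 and 1.54. The receptor response list as a whole was near even, with 13 of 19 members higher in I173A with TRA, median log2 ratio 0.09, and 4 of 12 higher without, median -0.03. Hashtag 4 and hashtag 6 also stand for the mice and their handling, which cannot be told apart from genotype.

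**Figure D5:**
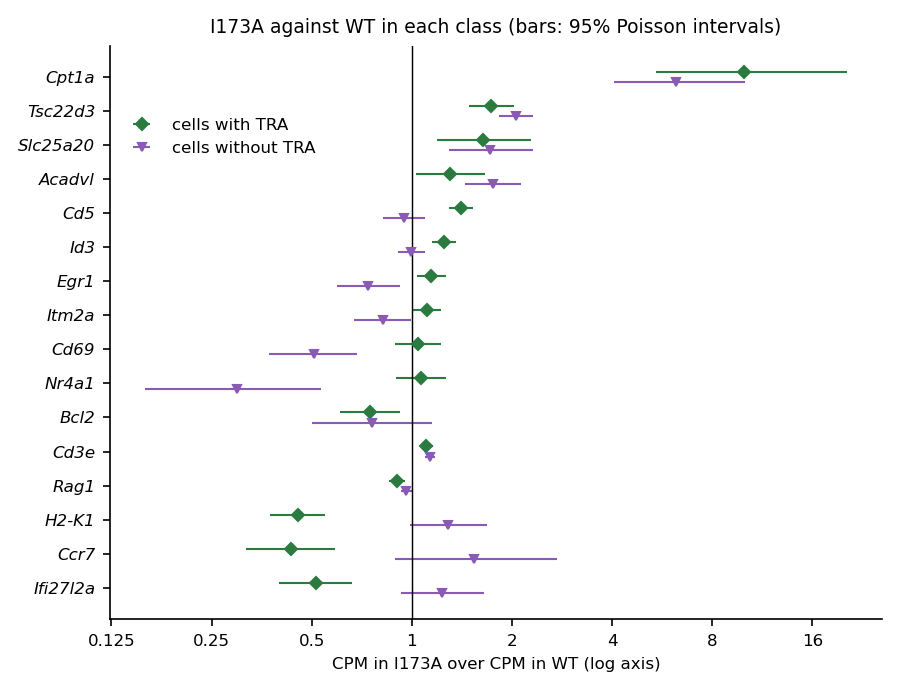
Ratio of CPM in I173A to WT for named genes in cells with TRA and without TRA (log axis), with counting intervals. Cpt1a lies highest in both classes (9.94 and 6.25), and Nr4a1 is at 1.07 with TRA and 0.30 without.

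The promoters of 3 genes that the comparison turns on are shown as the 250 bases before the transcript start that the RefSeq promoter table uses (GRCm38.p6), 5′ to 3′ on the strand of the gene: Nr4a1 from the high side, and Ptcra and Rag1 from the low side. Capitals mark matches on either strand to the EGR site GCGNGGGNG or the E-box CAGNTG, which do not overlap each other here. For Nr4a1 that start lies inside the gene span given above, downstream of its first base.
Nr4a1 (chr15:101266596-101266845, plus strand), 2 EGR matches: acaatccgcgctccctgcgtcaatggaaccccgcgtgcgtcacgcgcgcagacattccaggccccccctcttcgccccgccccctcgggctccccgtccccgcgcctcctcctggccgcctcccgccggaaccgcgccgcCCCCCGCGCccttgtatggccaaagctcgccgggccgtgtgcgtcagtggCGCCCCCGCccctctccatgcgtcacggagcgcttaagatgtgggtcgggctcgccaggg
Ptcra (chr17:46763713-46763962, minus strand), 2 E-box matches: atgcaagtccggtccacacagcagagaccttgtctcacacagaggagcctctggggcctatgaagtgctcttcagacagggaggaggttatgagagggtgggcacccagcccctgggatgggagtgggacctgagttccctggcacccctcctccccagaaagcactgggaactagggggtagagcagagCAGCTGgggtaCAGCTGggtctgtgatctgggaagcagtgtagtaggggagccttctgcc
Rag1 (chr2:101649533-101649782, minus strand), 3 E-box matches: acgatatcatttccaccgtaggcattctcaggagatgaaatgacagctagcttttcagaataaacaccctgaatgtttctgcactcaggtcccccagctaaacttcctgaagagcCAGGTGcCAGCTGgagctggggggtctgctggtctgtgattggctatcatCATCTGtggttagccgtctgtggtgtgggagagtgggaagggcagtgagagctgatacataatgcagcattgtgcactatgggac
The EGR site occurred in 10.5% of 32851 RefSeq promoters of this length and the E-box in 44.8%. Of the 15 named genes at the high end, 12 had a promoter in the table, 2 of them with an EGR match and 6 with an E-box. Of the 15 at the low end, 11 had one, 1 with an EGR match and 6 with an E-box, so the E-box occurred about equally on both sides.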

How the data were processed

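Droplet 5′ libraries of DP, CD4 SP and CD8 SP thymocytes gave UMI counts per gene and barcode, hashtag counts and receptor contigs. The authors deposited unnormalized counts and filtered contigs; Cell Ranger 6.0.1 and builds GRCm38 and mm10 are named per the submitters' processing notes. Cells were filtered and assigned to hashtags as given above, barcodes were joined to contigs, and counts were summed per genotype and class in Python 3.11.15 (pandas 2.3.3, scipy 1.17.1). Ratios are of CPM, with exact conditional Poisson 95% intervals; shares have exact Clopper-Pearson intervals. With 1 sample per genotype and gate no test was run. No doublet caller was run: cells with several hashtags were left out by the hashtag rule, and cells with 1 TRB and at most 2 TRA contigs were an alternative. The ratio code was tested on simulated data. edgeR 4.0.16 gave TMM factors as an alternative scaling.

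Named genes were the 15 highest and 15 lowest ratios, ranked by the genotype nearer to 1, with at least 100 UMIs, at least 20 CPM in a class and intervals leaving out 1 in both genotypes, a fixed set of receptor and stage genes, and up to 3 members at each end of each list. Fos, Jun, Gata3, Lck and Ldha were named after their values were seen, as were the 6 signal genes. The members and gene lists were chosen with earlier results of these data known. RefSeq tables matched 156 of 157 named genes. Alternatives covered the TRA UMI minimum, cycling limit, hashtag, gene and mitochondrial filters, depth matching, scaling and CPM floor.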

Additional observations from a re-analysis of the deposited data

Results flagged for a closer look

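Smc4, a condensin subunit, was on opposite sides of 1 in the 2 genotypes, with a ratio of cells with TRA to cells without of 0.88 in WT and 1.08 in I173A, each with a counting interval that leaves out 1; the difference was not tested, and the hashtag 5 cells were at 0.89. The DP receptor library also listed 815 barcodes that are not in the DP count matrix, 142 of them with a TRA contig, and these entered no comparison.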

How the results depend on the processing

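No paired analysis was possible because each genotype is 1 sample per gate and the results come from no test. With at least 3 TRA UMIs required, the TRA share was 32.4% in WT and 37.8% in I173A, and 118 genes were lower with TRA in I173A. With all cycling cells kept, the share was 34.1% in WT, 324 genes were higher and 431 lower in WT, and 259 were lower in I173A; Mybbp1a, Nolc1 and Zfyve28 then crossed 1 in WT, at 0.95, 0.95 and 1.09. With 1 TRB and at most 2 TRA contigs, a setting that removed cells only from the class with TRA, the I173A share was 41.5%. Depth matching kept all cells and gave each UMI range equal weight, however few its cells. It gave 287 higher and 201 lower in WT and 265 and 155 in I173A. A floor of 5 CPM gave 399 and 353 in WT and 397 and 309 in I173A, and one of 50 CPM gave 47 and 10, and 65 and 20. In 2 settings chosen after seeing the data, cells with at most 2 signal UMIs gave 78 higher in WT and 51 higher and 34 lower in I173A, and cells with at most 1 SP marker UMI gave 82 higher in WT, with H2-K1 at 0.90 and Ifi27l2a at 0.92 in WT. The cause of these changes was not tested. List medians stayed within their limits in 676 of 708 recomputed values and named genes in 3366 of 3767, with 5 on the other side of 1. List counts were not recomputed. The 24 counts between genotypes within a class all stayed within 1.5 times. TMM factors and another total moved no count by over 1.5 times.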
